A study of Mus musculus with 4 samples.

Results

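Transcripts of the proteasome, the protease complex that degrades proteins tagged with ubiquitin chains, were compared in pooled liver RNA of fed and fasted wild-type and PPARα-null mice. Every probe set that names a single gene was taken when its symbol begins with Psm, a letter from a to g and a digit. These were 85 probe sets of 48 genes, of 20393 single-gene probe sets and 12393 genes on the array. Of the 48 genes, 45 were measured, meaning that they lay above a floor of 16 intensity units on at least 1 array, as did 6947 genes in all. Constitutive subunits, assembly chaperones, activators and an inhibitor made up 42 of the genes, of which 40 were measured. The immunoproteasome made up 4, all measured, and the remaining 2, Psmc3ip and Psme3ip1, share the prefix but encode interacting proteins that are no subunits.

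The wild-type mice were of the substrain 129S1/SvImJ and the PPARα-null mice, which lack the fatty acid-activated nuclear receptor PPARα, were of the substrain 129S4/SvJae, so that genotype and substrain cannot be told apart. All mice were males of 12 to 20 weeks on laboratory chow. The fed pools come from mice sampled as the dark phase closed, and the fasted pools from mice without food for 24 hours, counted from lights on. Each group was a pool of the RNA of 5 mice on 1 Affymetrix MOE430A array, which leaves 4 arrays, no measure of the spread between animals and no test. The differences given here have no replicate check, and the number of arrays limits their precision.

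Proteasomes consist of a barrel-shaped core particle (20S), whose outer alpha rings control entry and whose inner beta rings hold the proteolytic sites, and of a regulatory particle (19S) that binds ubiquitin chains, unfolds the substrate with a ring of ATPases and threads it into the core. Dedicated chaperones help to assemble both particles. In cells exposed to interferon gamma the 3 catalytic beta subunits are replaced by Psmb8, Psmb9 and Psmb10, and the activator made of Psme1 and Psme2 is induced, which changes the peptides offered to class I molecules. In liver the proteasome works beside autophagy in the protein breakdown of fasting.

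The labels were checked on Ppara, which read 583 and 755 units in the fed and fasted wild-type pools and 104 and 16.3 units in the fed and fasted PPARα-null pools. No source used here tells whether its probe set lies in the disrupted part of the gene, and outside that part it would check nothing. All 7 measured hepatocyte markers were bright, with albumin between 11968 and 17033 units. The 4 arrays had medians of 14.4 to 14.6 units and between 23.0% and 23.7% of their probe sets at 64 units or more. In bulk liver, fewer cells of a type and less RNA per cell cannot be told apart. Centring the arrays on their bright probe sets in place of the deposited scale shifts every value of the fasted genotype comparison by 0.15 and of the fasting comparison in PPARα-null mice by 0.13 on the log2 scale, and the remaining comparisons by at most 0.03.

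By fasting the largest differences among the constitutive genes were those of the assembly chaperone Psmd9, far higher in both genotypes. Next came the assembly chaperones Psmd5, Psmg1, Psmd10 and Psmg2, which were lower after fasting in PPARα-null mice. The median log2 difference of the 40 measured genes between fasted and fed pools was 0.01 in wild-type and 0.04 in PPARα-null mice, against 0 and -0.01 over all 6947 genes. A difference of 1.5-fold or more, the threshold the study applied to its pooled arrays, was reached upward by 3 genes in wild-type mice (Psmd3, Psmd4 and Psmd9; 7.5% of the 40, against 8.2% of all measured genes) and downward by 0 (against 8.29%). In PPARα-null mice it was reached upward by 4 (Psmd1, Psmd8, Psmd9 and Psme3; 10% against 12.4%) and downward by 6 (Psma1, Psmd5, Psmd10, Psmg1, Psmg2 and Psmg3; 15% against 18%). The upward shares and that of lower genes in PPARα-null mice lay near the background, and the 0 lower genes in wild-type mice lay below it. Of the 6 lower genes in PPARα-null mice, 5 were assembly chaperones.

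Between genotypes the constitutive genes differed little. In the fasted pools 1 gene was at least 1.5-fold higher in PPARα-null mice (Psmd8; 2.5% of the 40, against 8.58%) and 3 were lower (Psmd5, Psmd14 and Psmg1; 7.5%, against 13.6%). In the fed pools 0 were higher, against 2.38%, and 0 were lower, against 2.12%. The largest fed difference was that of Psmd10, at 1.4995-fold just short of the threshold. The median log2 difference was -0.12 in both genotype comparisons, with 33 of the 40 genes below 0 in the fasted and 27 of the 40 in the fed pools, against 51.5% and 47.5% of all measured genes. With centred arrays the fasted median turned to 0.03, whereas the shift of the fed comparison by centring was below 0.01.

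Counting only genes at 64 units or more on the brighter array of a comparison left the constitutive genes below the background in every comparison. Of 36 constitutive genes, 1 was higher and 3 were lower in fasted PPARα-null than in fasted wild-type mice, where 12.3% and 19% of all such genes were. In the fed genotype comparison 0 of 35 passed in either direction, against 3.23% higher and 3.17% lower. By fasting, 2 of 36 were higher and 0 lower in wild-type mice, against 12.8% and 12.6%, and 4 were higher and 5 lower in PPARα-null mice, against 17.2% and 25.1%.

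**Figure D1:**
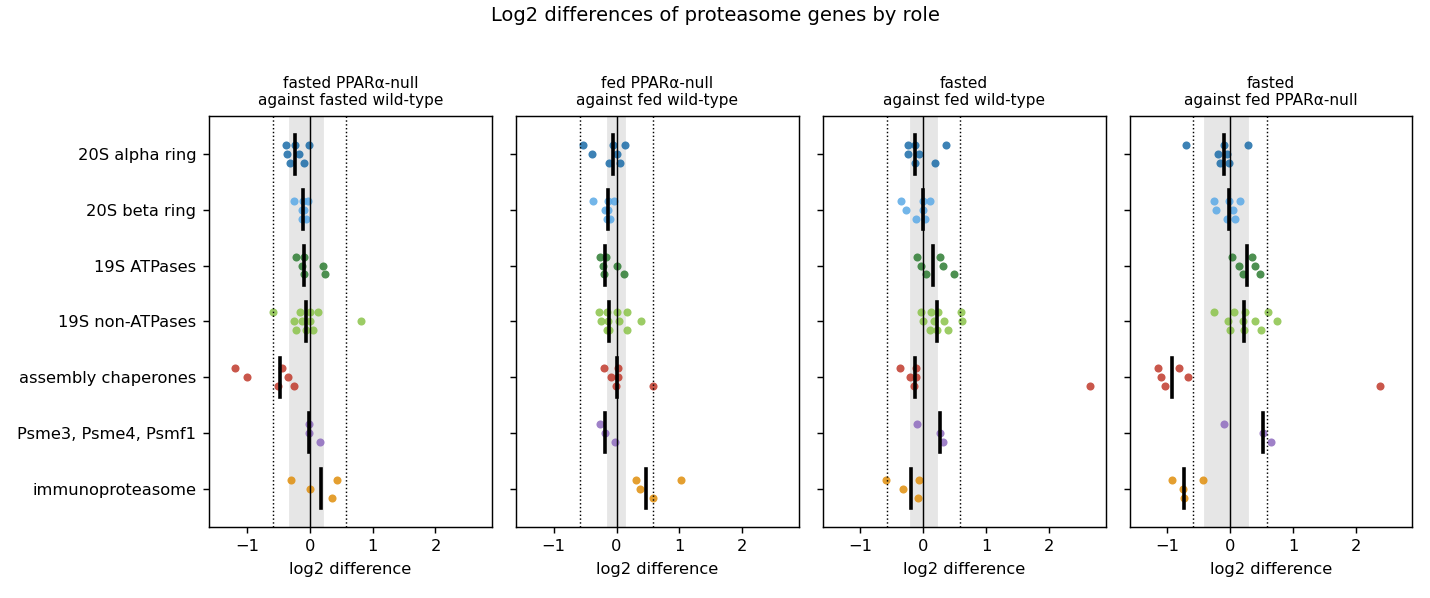
Log2 differences of the measured proteasome genes in the 4 comparisons, by role. Each point is 1 gene, thick bars are the medians of a role, dotted lines mark 1.5-fold and the grey band spans the middle 50% of all 6947 measured genes. Assembly chaperones lie furthest left in the fasting comparison of PPARα-null mice, with a median of -0.93 and Psmd9 alone at 2.38.

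Transcripts of the core particle differed little. Its 14 measured constitutive subunits, 7 alpha and 7 beta, had median log2 differences by fasting of -0.09 in wild-type and -0.05 in PPARα-null mice, and between genotypes of -0.13 fasted and -0.12 fed. All 14 were below 0 in the fasted genotype comparison, ranging from -0.37 to -0.01, but this sign depends on the scale, since with centred arrays 8 of the 14 were above 0 and the median was 0.02. In the fed pools all 7 beta subunits were lower in PPARα-null mice by 0.04 to 0.38 on the log2 scale, which is at most 1.30-fold. None of the 14 passed 1.5-fold in the genotype comparisons or by fasting in wild-type mice. Of all measured genes 8.58% were higher and 13.6% lower between fasted genotypes, and 2.38% and 2.12% between fed ones. By fasting in wild-type mice these shares were 8.2% and 8.29%.

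The constitutive catalytic subunits lay close together in all pools. Psmb5, which carries the chymotrypsin-like site, read 1063 and 1083 units in fed and fasted wild-type pools and 959 and 1067 in fed and fasted PPARα-null pools. Psmb6, with the caspase-like site, read 1147 and 1144 units in wild-type and 1047 and 1079 in PPARα-null mice, and Psmb7, with the trypsin-like site, 2775 and 2770 against 2705 and 2667. Across these 3 genes the largest difference was 0.15 on the log2 scale, that of Psmb5 by fasting in PPARα-null mice. Psmb2 was the one dim beta subunit, at 40.4 and 31.7 units in fed and fasted wild-type and 31.1 and 26.5 in PPARα-null pools. Psma8, a subunit of the testis, did not leave the floor, and Psmb11, of the thymus, has no single-gene probe set in the annotation used here.

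Among the alpha subunits Psma1 alone passed the threshold. It read 1774 and 1497 units in fed and fasted wild-type pools and 1953 and 1208 units in fed and fasted PPARα-null pools, and was thus 1.62-fold lower in fasted than in fed PPARα-null mice. This value was below 1.5-fold with centred arrays, at -0.56 on the log2 scale, and was -0.13 when its 3 probe sets, of which the other 2 are near the floor, were averaged. Psma2 read 2034 and 1717 units in wild-type and 1402 and 1711 units in PPARα-null mice, so the fed PPARα-null pool stood below the other 3, at 1.45-fold under the fed wild-type pool. Psma5 read 1609 and 1535 units in wild-type and 1232 and 1185 units in PPARα-null mice and was lower in both states, 1.31-fold in the fed one. Its dimmer probe set gave 284 and 292 units against 216 and 237. Psma7 read 722 units in the fed and 926 in the fasted wild-type pool but 726 and 721 units in PPARα-null mice, and its dimmer probe set read 438 and 633 against 420 and 522 units.

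The regulatory particle was mostly higher after fasting in both genotypes. Of its 17 measured subunits, 13 were above 0 in wild-type and 14 in PPARα-null mice, with medians of 0.21 and 0.22 on the log2 scale, against 48.2% and 47.0% of all measured genes above 0. Under quantile normalization, centring and removal of an intensity trend, 13 of the 17 were again above 0 in wild-type and 15 or 16 in PPARα-null mice. With probe sets averaged, 17 of 17 were above 0 in wild-type and 13 of 17 in PPARα-null mice. The differences were small, and 2 of 17 subunits in each genotype were higher by 1.5-fold or more, against 8.2% of all measured genes in wild-type and 12.4% in PPARα-null mice, so this count is about the background. Between genotypes the medians were -0.09 fasted and -0.13 fed, and the fasted one turned to 0.06 with centred arrays.

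By their brightest probe sets all 6 ATPases, which form the unfolding ring, were higher in fasted than in fed PPARα-null mice, with a median of 0.28. In wild-type mice 4 of the 6 were, with a median of 0.15. These counts depend on the probe sets. Averaged, or without lettered suffixes, 5 of 6 were above 0 in PPARα-null mice and 6 of 6 in wild-type mice. Psmc6 differed by 0.03 in PPARα-null mice by its brightest probe set and by -0.05 and -0.13 by others. Psmc1 was the ATPase with the largest difference. It read 634 and 888 units in fed and fasted wild-type pools and 549 and 763 units in fed and fasted PPARα-null pools, which is 1.40-fold and 1.39-fold. The difference by fasting was therefore of nearly the same size in both genotypes. Psmc4 read 699 and 867 units in wild-type and 762 and 1003 in PPARα-null mice, and its second probe set 459 and 627 against 501 and 672 units, so both probe sets were higher in each fasted pool. Psmc5 read 446 and 535 units in wild-type and 388 and 492 in PPARα-null mice. The 2 probe sets of Psmc2 disagreed in sign between the fasted genotypes, at 0.24 for the brighter and -0.14 for the dimmer one.

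Among the non-ATPase subunits, 9 of 11 were above 0 by fasting in wild-type and 8 of 11 in PPARα-null mice, with medians of 0.21 and 0.22. Psmd4, a receptor for ubiquitin chains, read 1108 and 1686 units in fed and fasted wild-type pools and 1011 and 1419 units in fed and fasted PPARα-null pools. Both fasted pools stood above both fed pools, by 1.52-fold in wild-type and 1.40-fold in PPARα-null mice. A second probe set, at 586 and 828 units in wild-type and 499 and 639 in PPARα-null mice, had the same order of pools. The wild-type difference was 0.58 with centred arrays and 0.42 with probe sets averaged, just under and below the threshold of 0.58496 on the log2 scale.

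Psmd8, a subunit of the lid, the part of the regulatory particle that removes ubiquitin chains, had the largest genotype difference of the regulatory particle. It read 400 units in the fed wild-type pool, 501 in the fasted wild-type pool, 526 in the fed PPARα-null pool and 885 in the fasted PPARα-null pool. The fasted PPARα-null pool was 1.77-fold above the fasted wild-type pool and 1.68-fold above its own fed pool, while the fed genotype difference was 1.32-fold. Psmd14, the deubiquitinase of the lid, ran the other way, with 308 and 348 units in fed and fasted wild-type and 276 and 231 units in fed and fasted PPARα-null mice. Its fasted genotype difference of -0.59 on the log2 scale was -0.52 under quantile normalization, -0.44 with centred arrays and -0.55 with the intensity trend removed, all short of the threshold.

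Psmd12, another lid subunit, read 1056 and 1380 units in fed and fasted wild-type pools and 1090 and 1265 units in PPARα-null pools, 1.31-fold and 1.16-fold higher after fasting. Psmd1, a large scaffold subunit, read 524 and 614 units in wild-type and 443 and 672 units in PPARα-null mice, where the fasted pool was 1.52-fold higher. Psmd3 was dim, at 27.2 and 41.6 units in wild-type and 30.4 and 40.1 units in PPARα-null mice, and its 1.53-fold difference in wild-type mice thus lies near the floor. In each of these 3 subunits both fasted pools stood above both fed pools. The other lid and base subunits, Psmd2, Psmd6, Psmd7, Psmd11 and Psmd13, differed little by their brightest probe sets, the largest log2 difference being the -0.27 of Psmd11 between fed genotypes. Another probe set of Psmd11, at 1537 and 1664 units in wild-type and 1518 and 2111 units in PPARα-null mice, differed by 0.48 by fasting in PPARα-null mice and 0.34 between fasted genotypes, and a dim one of Psmd6 by -0.41 between fasted genotypes.

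The letters shown for Psmc1 are the 250 bases before its start, at chr12:100109952-100110201 of GRCm38.p6 on the plus strand, from RefSeq. Psmc1 is shown because its promoter carries a match to the ETS core, a motif that 8 of 14 regulatory particle genes with a listed promoter held but 1 of 11 core particle genes. Of the 8 motifs searched this one had the widest split between the particles, so the split is a description and no test. Capitals mark the ETS core, here read on the opposite strand as CTTCCGG at -28 to -22, and a CCAAT box at -175 to -171, counted back from the base before the start.
Psmc1: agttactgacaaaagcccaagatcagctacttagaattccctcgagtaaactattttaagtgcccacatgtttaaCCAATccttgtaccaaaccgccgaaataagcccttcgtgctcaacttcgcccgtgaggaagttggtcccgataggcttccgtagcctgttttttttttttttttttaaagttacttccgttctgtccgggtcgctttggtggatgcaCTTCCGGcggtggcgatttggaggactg
The ETS core was searched as CCGGAAG on both strands and lay in 12 of the 38 proteasome promoters listed (31.6%), against 16.7% of 5705 measured genes. The CCAAT box was held by 13 of the 38 (34.2%), against 40.5%. It split the other way, with 4 of 14 regulatory particle genes and 6 of 11 core particle genes. A match is a description of these letters and not a site of binding.

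**Figure D2:**
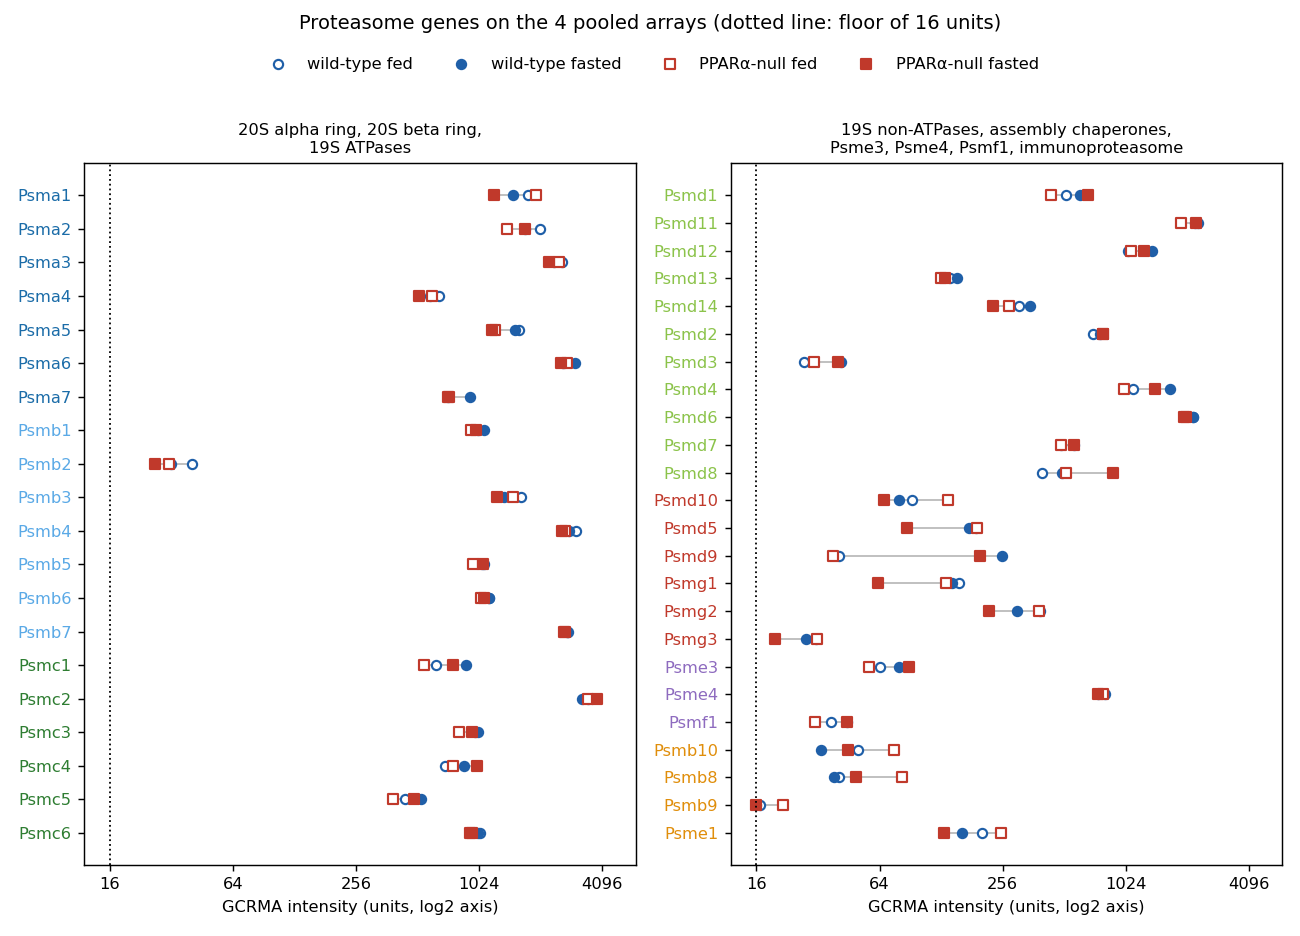
GCRMA intensity of the measured proteasome genes on the 4 pooled arrays, on a log2 axis, with genes coloured by role and the dotted line at the floor of 16 units. Each symbol is 1 pool. The 4 pools lie close together for most core subunits, whereas Psmd9 spans 38.1 to 253 units and the fasted PPARα-null pool is lowest for Psmd5, Psmd10, Psmg1, Psmg2 and Psmg3.

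Assembly chaperones showed the largest differences. Psmd5, Psmd9 and Psmd10 escort the ATPases into the base of the regulatory particle, and Psmg1 to Psmg4 guide the alpha ring. Of 7 genes, 6 were measured and Psmg4 did not leave the floor. In PPARα-null mice 5 of the 6 were at least 1.5-fold lower after fasting (against 18% of all measured genes), with a median of -0.93, whereas in wild-type mice 0 of the 6 were (against 8.29%), with a median of -0.14. With centred arrays or averaged probe sets 4 of the 6 were lower in PPARα-null mice, and without probe sets of lettered suffix, which leaves out Psmd10 and the brighter probe set of Psmg2, 3 of 5 were, and 1 of 5 in wild-type mice. The remaining gene, Psmd9, was far higher after fasting in both genotypes.

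Psmd9 read 40.5 units in the fed and 253 units in the fasted wild-type pool, and 38.1 units in the fed and 199 units in the fasted PPARα-null pool. The fasted pools were 6.26-fold and 5.22-fold above the fed ones, and no other proteasome gene differed by as much in any comparison. Of the 6947 measured genes, 24 had a larger increase by fasting in wild-type and 68 in PPARα-null mice. Between genotypes Psmd9 differed little, by -0.35 on the log2 scale in fasted and -0.09 in fed pools. A second probe set for the gene read 7.60 and 9.64 units in wild-type and 6.20 and 9.86 units in PPARα-null mice, below the floor throughout. The difference thus rests on 1 probe set. With both averaged it was 1.49 in wild-type and at least 1.47 in PPARα-null mice, where the averaged fed value lay at the floor.

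Psmg1 read 156 and 145 units in fed and fasted wild-type pools and 136 and 63.2 units in fed and fasted PPARα-null pools. Psmd5 read 190 and 175 units in wild-type and 193 and 87.4 units in PPARα-null mice. In both genes 3 pools lay close together and the fasted PPARα-null pool stood apart, 2.29-fold below fasted wild-type for Psmg1 and 2.004-fold for Psmd5. Against their own fed pools they were 2.15-fold and 2.21-fold lower. Psmd10, also known as gankyrin, read 92.7 and 79.9 units in wild-type and 139 and 67.5 units in PPARα-null mice, and here the fed PPARα-null pool was the highest and the 2.06-fold difference by fasting stood against 1.18-fold between fasted genotypes.

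Psmg2 read 389 and 300 units in fed and fasted wild-type pools and 387 and 220 units in fed and fasted PPARα-null pools. It was lower after fasting in both genotypes, 1.30-fold and 1.76-fold. A dimmer probe set read 80.5 and 50.1 units in wild-type and 63.6 and 51.8 units in PPARα-null mice and gave the larger difference to wild-type mice, at -0.68 against -0.30, so the 2 probe sets disagree on the order of the genotypes. Psmg3 was dim, at 31.2 and 28.1 units in wild-type and 31.6 and 19.8 units in PPARα-null mice, and its 1.60-fold difference was -0.55 on the log2 scale with centred arrays.

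All 6 measured chaperones with the Psm prefix were lower in fasted PPARα-null than in fasted wild-type mice. Their median was -0.48 and their range from -1.19 to -0.24. All 6 were also lower under quantile normalization, centring, removal of an intensity trend and averaging of probe sets. Pomp, a chaperone without the prefix, did not share this, at -0.04 between fasted genotypes. Without lettered suffixes 1 of 5 was above 0, since the dimmer probe set of Psmg2 had a difference of 0.05 between fasted genotypes. In the fed pools the median was 0.01. Taking the difference by fasting in PPARα-null mice minus that in wild-type mice, the 6 chaperones ranged from -1.03 to -0.26 with a median of -0.68, against a median of -0.03 over all measured genes and -0.0032 over the core particle. In the same fasted genotype comparison 8 of 11 measured Kupffer cell and macrophage markers were higher by 1.5-fold or more (against 8.58% of all measured genes) and 0 lower, their median was 0.87, and they summed to 594 units in the fasted wild-type pool and to 1202 in the fasted PPARα-null one, with Cd68 at the floor on all arrays. Of 5 measured endothelial and stellate cell markers 4 were higher and 0 lower, the median was 1.02 and the sums were 620 and 1445 units in these pools, with Pecam1, Col1a1 and Des at the floor. The hepatocyte markers had a median of 0.19. The part of these cell types in the values of the chaperones was not tested.

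The promoters of Psmd9 and Psmg1 are shown because these genes had the largest difference by fasting and the largest one between fasted genotypes. Both are the 250 bases before the start in GRCm38.p6 from RefSeq, at chr5:123227940-123228189 on the plus strand and chr16:95990961-95991210 on the minus strand. Capitals mark an E-box at -51 to -46 and an antioxidant response element core at -31 to -23 for Psmd9, and an interferon gamma activated site at -243 to -235 and an ETS core at -69 to -63 for Psmg1.
Psmd9: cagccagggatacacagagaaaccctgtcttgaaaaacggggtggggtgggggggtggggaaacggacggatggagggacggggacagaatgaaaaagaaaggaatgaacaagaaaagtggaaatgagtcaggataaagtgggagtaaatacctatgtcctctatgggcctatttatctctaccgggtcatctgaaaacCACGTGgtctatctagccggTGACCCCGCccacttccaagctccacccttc
Psmg1: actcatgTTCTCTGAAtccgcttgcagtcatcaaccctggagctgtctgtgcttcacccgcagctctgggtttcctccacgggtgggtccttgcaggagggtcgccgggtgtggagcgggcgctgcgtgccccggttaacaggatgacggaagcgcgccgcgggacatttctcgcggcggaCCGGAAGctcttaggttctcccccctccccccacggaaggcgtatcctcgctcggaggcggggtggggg
The antioxidant response element core, the motif bound by the proteasome gene activator Nfe2l1, was searched as TGACNNNGC and lay in 5 of 38 proteasome promoters (13.2%; Psmb5, Psmb6, Psmc6, Psmd9 and Psmd12), against 14% of measured genes. The E-box, searched as CACGTG, lay in 4 of 38 (10.5%) against 10.6%. A perfect PPAR response element was in 0 of the 38 windows and in 2 of 5705 (0.0351%), and the FoxO site TGTTTAC in 0 of the 38 against 2.86%.

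**Figure D3:**
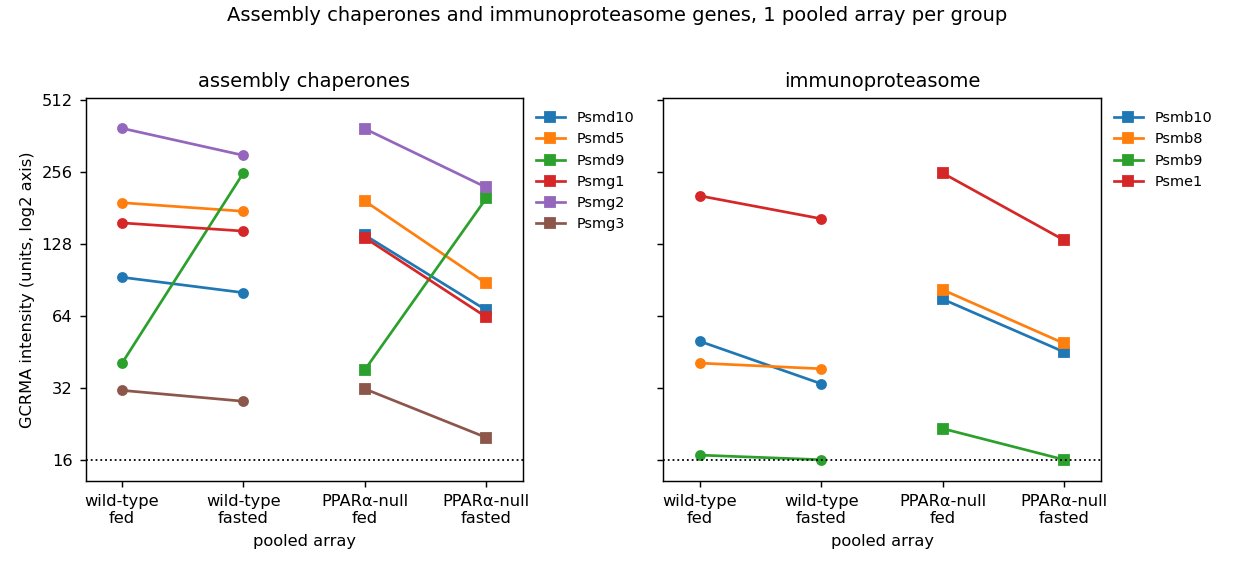
GCRMA intensity of the assembly chaperones and the immunoproteasome genes on the 4 pooled arrays, on a log2 axis, with lines joining the fed and fasted pool of a genotype and the dotted line at the floor of 16 units. Psmd9 goes from 40.5 to 253 units in wild-type mice and from 38.1 to 199 units in PPARα-null mice, opposite to the other chaperones in the latter. The 4 immunoproteasome genes are highest in the fed PPARα-null pool.

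The 3 further regulators were Psme3 and Psme4, which encode activators of the core, and Psmf1, which encodes an inhibitor. Psme3 read 64.5 and 80.1 units in fed and fasted wild-type pools and 56.7 and 89.2 units in PPARα-null pools, so both fasted pools were higher, by 1.24-fold and 1.57-fold. The latter difference was 0.54 on the log2 scale with its 3 probe sets averaged. By its brightest probe set Psme4 read 810 and 753 units in wild-type and 797 and 749 units in PPARα-null mice, close together in all pools. Another probe set of Psme4 read 517 and 667 units in wild-type and 603 and 660 units in PPARα-null mice. Its log2 difference by fasting in wild-type mice was 0.37, against -0.11 for the brightest one. Psmf1 was dim, at 37.0 and 44.6 units in wild-type and 30.9 and 44.3 units in PPARα-null mice. Psme3ip1, an interactor and no subunit, read 28.0 and 32.1 units in wild-type and 30.7 units in fed PPARα-null mice and was at the floor in the fasted PPARα-null pool, which is at least 2.01-fold below fasted wild-type and at least 1.92-fold below its own fed pool. Psmc3ip did not leave the floor.

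The immunoproteasome genes were highest in fed PPARα-null mice. Psmb8, Psmb10 and Psme1 were above the fed wild-type pool by 0.32 to 1.02 on the log2 scale, and were lower after fasting by differences of -0.59 to -0.08 in wild-type and -0.93 to -0.73 in PPARα-null mice. Psmb9 had the same signs, but it cleared the floor only in the fed pools, so its direction by fasting was fixed by the filter. With Psmb9 included the medians were 0.48, -0.20 and -0.74, against 0, 0 and -0.01 over all measured genes. By 1.5-fold or more, 1 of the 4 was higher in the fed genotype comparison (Psmb8; against 2.38% of all measured genes), 1 was lower after fasting in wild-type mice (Psmb10; against 8.29%) and 3 were lower after fasting in PPARα-null mice (Psmb8, Psmb10 and Psme1; against 18%). In the fasted genotype comparison 0 of the 4 passed and the median was 0.18. The signs of Psmb8, Psmb10 and Psme1 by fasting and between fed genotypes were the same under quantile normalization, centring and removal of an intensity trend.

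Psmb8, which replaces Psmb5, read 40.6 and 38.4 units in fed and fasted wild-type pools and 82.1 and 49.0 units in fed and fasted PPARα-null pools. The fed PPARα-null pool was 2.02-fold above fed wild-type and 1.68-fold above the fasted PPARα-null pool, and the wild-type pools lay together. Psmb10, which replaces Psmb7, read 50.0 and 33.2 units in wild-type and 75.1 and 45.1 units in PPARα-null mice. It was lower after fasting in both genotypes, 1.51-fold and 1.66-fold, and its fed genotype difference of 1.4999-fold was just short of the threshold. Psmb9, which replaces Psmb6, was at the floor in both fasted pools and read 16.7 and 21.6 units in the fed wild-type and fed PPARα-null pools, so it was measured only through its fed levels and its small differences carry little weight.

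Psme1, a subunit of the interferon-induced activator, was well above the floor, at 203 and 163 units in fed and fasted wild-type pools and 253 and 132 units in fed and fasted PPARα-null pools. It was 1.91-fold lower after fasting in PPARα-null mice and 1.25-fold lower in wild-type mice. Its fasted genotype difference ran against Psmb8 and Psmb10, at -0.30 compared with 0.35 and 0.44 on the log2 scale. Psmb8 and Psmb10 reached 64 units only in the fed PPARα-null pool. With the floor raised to 64 units the fed genotype difference of Psmb8 became 0.36, and the fasting differences of Psmb8 and Psmb10 in PPARα-null mice -0.36 and -0.23.

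Markers of other cell types differed between the same pools. The array names 14 leukocyte markers singly. Of these, Ptprc, Cd4, Coro1a and Laptm5 (4 of 14) were measured, while Cd3d, Cd3e, Cd3g, Cd8a, Cd79a, Cd79b, Ms4a1, Nkg7, Ncr1 and Itgax were at the floor on all arrays. The summed level of the measured 4 was 116 and 89.7 units in fed and fasted wild-type and 177 and 116 units in fed and fasted PPARα-null mice. Their median log2 difference was 0.37 between fed genotypes and -0.27 and -0.67 by fasting in wild-type and PPARα-null mice. Most of the fed difference in the sum was Laptm5, at 45.5 units in fed wild-type and 92.6 in fed PPARα-null mice, while Cd4 read 21.8 and 21.9 units. The 5 measured endothelial and stellate cell markers had a median of 0.46 between fed genotypes, and 0.14 and 0.37 by fasting in wild-type and PPARα-null mice. Between fed genotypes 2 were higher by 1.5-fold or more (Col3a1 and Vim; against 2.38% of all measured genes). Of the 5, 3 were above 0 there and 2 below it, Stab2 at -0.30 and Kdr at -0.02. Kupffer cell and macrophage markers had medians of 0.0027 between fed genotypes, -0.68 by fasting in wild-type and 0.36 by fasting in PPARα-null mice. The part of these cell types in the immunoproteasome values was not tested.

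Among 10 measured interferon regulators and targets, 2 were higher (against 2.38% of all measured genes) and 0 lower in fed PPARα-null than in fed wild-type mice, and 1 was higher and 2 were lower between the fasted genotypes (against 8.58% and 13.6%). By fasting 1 was higher and 3 were lower in wild-type mice (against 8.2% and 8.29%), and 0 were higher and 4 lower in PPARα-null mice (against 12.4% and 18%). Igtp, an interferon-induced GTPase, read 47.6 and 19.7 units in fed and fasted wild-type and 98.5 and 17.8 units in fed and fasted PPARα-null pools. Irgm1, a GTPase of the same kind, read 91.2 and 51.8 units against 153 and 49.5 units. Igtp and Irgm1 were thus highest in the fed PPARα-null pool, as were the immunoproteasome genes. Ifit1 was also highest there, but it cleared the floor in that pool only. Other members of the list did not share this order of pools. Between fed genotypes 7 of the 10 were above 0 and 2 below it, Stat2 at -0.26 and Irf1 at -0.16. Stat2 and Irf1 were highest in the fed wild-type pool, and Ifngr1 and Irf9 in the fasted PPARα-null pool. Irf2, an interferon regulatory factor, read 40.2 and 69.2 units in wild-type and 45.2 units in fed PPARα-null mice and was at the floor in the fasted PPARα-null pool, and Ifit3 read 21.2 and 17.3 units against 28.2 and 31.5 units. Ifng, Irf7, Irf8 and Gbp2 were at the floor on all arrays.

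Class I antigen presentation, which takes up the peptides the immunoproteasome makes, had few differences past the threshold. Of 9 measured genes 0 passed 1.5-fold between genotypes in either state. Of all measured genes 8.58% were higher and 13.6% lower between fasted genotypes, and 2.38% and 2.12% between fed ones. By fasting 0 were higher and 1 was lower in wild-type mice (against 8.2% and 8.29% of all measured genes). In PPARα-null mice 1 was higher and 2 were lower (against 12.4% and 18%). With 9 genes such counts cannot be told apart from these shares. Pdia3, a chaperone of the peptide-loading complex, read 2267 and 1291 units in fed and fasted wild-type pools and 2433 and 1124 units in PPARα-null pools. Calr, another such chaperone, read 6090 and 4634 units against 6512 and 4164 units, and Canx 2837 and 2023 against 2712 and 1874 units. These 3 chaperones of the endoplasmic reticulum were lower in both fasted pools. Erap1, a peptide-trimming enzyme, was near the floor, at 17.9 and 23.5 units in wild-type and 16.8 and 17.5 units in PPARα-null mice. The gene that was higher after fasting in PPARα-null mice was H2-K1, a class I heavy chain named after its values were seen, at 2415 and 2666 units in wild-type and 2288 and 3436 units in PPARα-null mice.

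The promoter of Psmb8 is shown as that of the immunoproteasome gene with the largest fed genotype difference, at chr17:34197945-34198194 of GRCm38.p6 on the plus strand, from RefSeq. Capitals mark an interferon gamma activated site, searched as TTCNNNGAA, at -97 to -89.
Psmb8: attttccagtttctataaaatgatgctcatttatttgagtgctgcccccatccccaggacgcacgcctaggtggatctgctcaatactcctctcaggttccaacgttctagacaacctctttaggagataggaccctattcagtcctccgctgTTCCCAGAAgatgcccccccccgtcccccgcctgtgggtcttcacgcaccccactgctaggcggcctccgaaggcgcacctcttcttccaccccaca
The motif lay in 2 of 38 proteasome promoters (5.26%; Psmb8 and Psmg1), against 7.06% of measured genes. The interferon-stimulated element core TTCNNTTTC lay in 3 (7.89%; Psmb3, Psmd4 and Psmd9), against 7.17%. None of these 3 is an immunoproteasome gene, and the match in the Psmd9 promoter is not among its capitals.

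Proteins that work with the proteasome but lie outside its subunits gave a mixed picture. Of 13 measured cofactors, 0 were higher and 1 was lower between fasted genotypes (against 8.58% and 13.6% of all measured genes). Between fed genotypes 0 passed (against 2.38% higher and 2.12% lower), as by fasting in wild-type mice (against 8.2% and 8.29%). By fasting in PPARα-null mice 1 was higher and 1 was lower (against 12.4% and 18%). Nfe2l1, the transcription factor that induces proteasome genes when the proteasome is inhibited, was dim, at 23.5 and 33.5 units in fed and fasted wild-type and 18.7 and 16.3 units in fed and fasted PPARα-null pools, and was 2.06-fold lower in fasted PPARα-null than in fasted wild-type mice. Pomp, the chaperone of beta ring maturation, read 795 and 546 units in wild-type and 858 and 533 units in PPARα-null mice. Its log2 differences by fasting were -0.54 and -0.69, and it differed by -0.04 between fasted genotypes. Ubqln1, a shuttle that brings tagged proteins to the proteasome, read 2133 and 1866 units against 1995 and 1373 units, and Uchl5, a deubiquitinase of the regulatory particle, 193 and 142 units against 163 and 138 units. The one cofactor that was higher, Ubqln2, was named after its values were seen and read 450 and 464 units against 388 and 608 units.

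The list of ubiquitin genes had 3 measured members, the segregase Vcp, which pulls tagged proteins out of complexes ahead of the proteasome, and its cofactors Nploc4 and Ufd1. Nploc4 read 316 and 536 units in fed and fasted wild-type pools and 373 and 623 units in fed and fasted PPARα-null pools, 0.76 and 0.74 on the log2 scale and past 1.5-fold in both genotypes. Ufd1 read 103 and 146 units in wild-type and 127 and 241 units in PPARα-null mice a difference by fasting of 0.51, short of the threshold, and 0.92 on the log2 scale, and was 1.65-fold higher in fasted PPARα-null than in fasted wild-type mice. Vcp itself read 2180 and 2426 units against 2332 and 2082 units and did not pass the threshold in any comparison.

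The fasting responses of the 2 genotypes rest on different arrays and can be set against each other. Across 44 measured proteasome genes the log2 differences had Pearson's r of 0.82 and Spearman's rho of 0.79, and without Psmd9 0.71 and 0.77 over 43 genes. Over all 6947 measured genes r was 0.58 and rho 0.53. Genes are not independent replicates, all 44 were read on the same 4 arrays, and no p is given.

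As a measure of the noise of single probe sets, those of the same gene that were at 64 units or more on all arrays were compared. For 12 proteasome genes with 27 such probe sets the log2 differences scattered within a gene with an SD of 0.15 between fasted genotypes, 0.087 between fed genotypes, and 0.16 and 0.12 by fasting in wild-type and PPARα-null mice. Over 861 genes these were 0.30, 0.19, 0.24 and 0.37. This scatter holds probe differences only and leaves out the spread between animals. The 12 genes were core and regulatory particle subunits and Psme4, with no assembly chaperone and no immunoproteasome gene. Their scatter therefore does not cover the genes with the largest differences. The 2 probe sets of Psmg2, of which 1 was below 64 units on some arrays, differed by -0.45 and 0.05 between fasted genotypes.

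**Figure D4:**
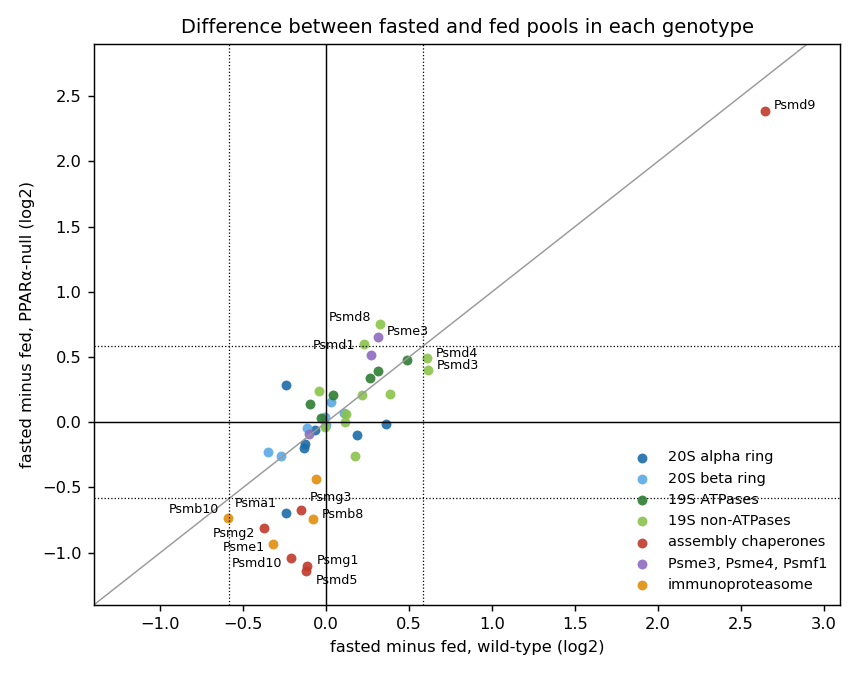
Log2 difference between the fasted and fed pool of each of 44 proteasome genes in wild-type mice (horizontal) and PPARα-null mice (vertical), coloured by role, with dotted lines at 1.5-fold and the diagonal of equal differences. Genes past 1.5-fold in either genotype are named. Psmd9 lies alone at 2.65 and 2.38, and Psmd5, Psmg1 and Psmd10 lie more than 1 below 0 in PPARα-null mice and near 0 in wild-type mice.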

How the data were processed

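Liver RNA of male mice was profiled as 1 pool per group on Affymetrix MOE430A arrays, with groups taken from the labels. The deposited values are linear intensities made by the authors with GCRMA (the submitters' notes give version 2.20), which removes background with the help of probe sequences, normalizes quantiles between arrays and summarizes probe sets. The arrays that went into that normalization are not known here, and scanner files were not used. Of 22690 probe sets, 64 were controls, 20393 named 1 gene and 691 named several. All 48 proteasome genes were matched by gene ID in RefSeq (GRCm38.p6), with 0 symbols differing.

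Intensities were converted to log2 and set to a floor of 4 (16 units), and each gene was read from its brightest probe set. Comparisons are log2 differences between 2 arrays, counted at 1.5-fold without p-values. A fold against the floor is written as at least. Values are given for the immunoproteasome, for members past 1.5-fold, for up to 5 members with the largest difference per comparison that reached 128 units, and for up to 4 members of each other list by their difference between fasted genotypes or by fasting in wild-type mice. Further members were added as examples after their values were seen. The members and lists were chosen with earlier results of these data known. Sem1 was also searched as Shfm1. In the 250 bases before the start, listed for 38 of 46 proteasome genes, 8 motifs were searched on both strands, and matches of different motifs may overlap.

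Alternatives were a threshold of 2-fold, a higher floor (log2 of 6) or none, a filter at 64 units, repeated quantile normalization, centring on bright probe sets, lowess (fraction 0.3) against an intensity trend, omission of probe sets with lettered suffixes, averaged probe sets and counts of probe sets. The procedure was tested on simulated data. The software was Python 3.11.15 with numpy 2.4.6, pandas 2.3.3, scipy 1.17.1, statsmodels 0.14.6 and matplotlib 3.10.9.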

Additional observations from a re-analysis of the deposited data

How the results depend on the processing

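Of 24 differences of named genes past 1.5-fold, 14 stayed past it in every alternative run for them, and over their 159 alternatives 143 stayed past it and 0 turned sign. The 16 counts and medians stayed close in 128 of 152 alternatives. With centred arrays the constitutive median between fasted genotypes turned from -0.12 to 0.029, by the shift that centring makes, the fasting median in PPARα-null mice became 0.17 with 7 genes higher, and the immunoproteasome median there became -0.61. At 2-fold, 0 constitutive genes were higher between fasted genotypes, 1 was higher by fasting in wild-type mice, and 1 was higher and 3 were lower by fasting in PPARα-null mice. Quantile normalization put 1 constitutive gene above 1.5-fold between fed genotypes. The shares of all measured genes under these alternatives are not given here, so such counts cannot be set against a background. With the floor at log2 of 6 the immunoproteasome medians were 0 between fasted genotypes, 0.32 between fed genotypes, and 0 and -0.36 by fasting in wild-type and PPARα-null mice. With genes at log2 of 6 or more the fasted genotype median turned to -0.30, which is Psme1 alone, as is the wild-type fasting one of -0.32, and the fed one was 0.58, where Psmb8 and Psmb10 entered only through the fed PPARα-null pool in which they are high. Without a floor, and with probe sets counted, the fasted genotype median of the immunoproteasome was 0.026. Leaving out lettered suffixes, which leaves out Psmb8, gave 0, 0.37 and -0.32 for the same 3 medians, a constitutive median of 0.16 by fasting in wild-type mice and 1 constitutive gene lower there, as did counting probe sets. No paired analysis was possible because each group holds 1 array. Low signal limits the immunoproteasome, since 3 of its 4 genes were below 64 units on at least 3 of the 4 arrays. The cause of the other shifts was not tested.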

Other observations

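Psme2, the partner of Psme1 in the interferon-induced activator, has no probe set of its own in the annotation used here. One probe set that names both Psme2 and Psme2b read 167 and 113 units in fed and fasted wild-type pools and 219 and 99.9 units in fed and fasted PPARα-null pools. It was highest in the fed PPARα-null pool and was 1.48-fold lower after fasting in wild-type and 2.19-fold lower in PPARα-null mice. Which of the genes it read cannot be told apart.

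The fasting responses of the constitutive genes other than the chaperones differed between genotypes by a median of 0.01 on the log2 scale over 34 genes, with 18 above and 16 below 0. The log2 difference by fasting in PPARα-null mice minus that in wild-type mice was 0.34 for Psme3, 0.02 for Psme4 and 0.25 for Psmf1. By its brightest probe set Psme4 was lower after fasting in both genotypes, at -0.11 in wild-type and -0.09 in PPARα-null mice. For Psmb8, Psmb10 and Psme1 the same value lay between -0.67 and -0.14. Psmb9 was at the floor in both fasted pools, so its value only repeats its fed genotype difference and is left out.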
